A study of Mus musculus with 11 samples.

Results

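The comparison described here is that of BV2 cells given nApoE4, the amino-terminal fragment of apolipoprotein E4 that holds residues 1 to 151, with the untreated controls set up for that fragment. Its members were chosen by the sample titles, as the 3 libraries titled ApoE4 and the 3 titled ControlA, which make up 6 of the 11 libraries of the series. The other 5 libraries belong to a second experiment with the matching fragment of apolipoprotein E3 and its own controls, and they enter only 1 alternative fit here. All genes listed in the count files were taken, 36529 in number, and 14240 of them held enough counts to be tested within these 6 libraries.

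BV2 is a transformed line of mouse microglia, with C57BL/6 given as its strain in the labels. All 6 libraries came from this 1 line, grown in RPMI medium with serum. Treated cells received nApoE4 at 25 μg/mL for 5 h. The fragment was a recombinant protein with a His tag. For the controls, the methods name conditioned medium and the series labels name a PBS vehicle, so what the untreated cells received is not settled. The study's methods call the measurements independent, but neither they nor the labels say that the replicates came from separate cultures, and the p-values below therefore measure the spread between these libraries, which may be technical. RNA was total RNA from whole cultures, in which fewer cells of a kind and less RNA per cell cannot be told apart.

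Microglia are the resident macrophages of the brain. In a resting state they hold transcription factors and receptors that keep them attached to the tissue and clearing debris, and when they meet microbial or damage signals they switch on NF-kB, a family of transcription factors held in the cytoplasm by inhibitor proteins whose own genes are NF-kB targets. Activated macrophages also change their metabolism. They take up cystine and make glutathione, alter the supply of sterols and glucose, and stop dividing. ATF4 is the transcription factor that raises amino acid transporters and tRNA-charging enzymes when amino acids run short, and HIF1 is the one that raises glycolytic enzymes and mitophagy genes when oxygen is low or its hydroxylases are slowed.

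The 6 libraries held 39732710 to 44162511 counts on genes, 76.0 to 77.4% of all reads that were tallied, unaligned reads included. Levels are given as CPM, counts scaled to a library of 1000000 after TMM normalization, at which 3 counts, taken as the floor, correspond to 0.0657 to 0.0775 CPM. Of 13 microglia and macrophage markers 10 were tested, and their summed level was 3671 to 4052 CPM in the controls and 3931 to 4021 CPM with nApoE4. P2ry12 was listed at 0 in every library, Aif1 and Cx3cr1 stayed under 0.4 CPM, and Tmem119 lay between 1.28 and 3.11 CPM, so these markers of resident microglia were listed at 0 or at low levels. Endothelial markers summed to 202 to 239 CPM in the controls and 116 to 129 CPM with nApoE4, mostly from Kdr. Neuronal markers summed to 2.04 to 2.69 CPM in the controls and 5.50 to 6.61 CPM with nApoE4, and astrocyte markers to 1.38 to 1.60 and 7.04 to 8.09 CPM, with Gfap and Aqp4 at or near 0, and each other marker list stayed under 15 CPM. The part of these markers in the results was not tested. Some genes that every cell uses, such as B2m and G6pdx, were listed at 0 in all 6 libraries, so a 0 in these files does not show that a gene was silent. Control replicate 2 stood apart by transcript length. Over genes of at least 10 CPM with a longest transcript under 1500 bases its median log2 deviation from the mean of the other 2 controls was 0.25, and over those above 6000 bases it was -0.26. Control replicate 3 deviated the other way, by -0.20 and 0.19, and the nApoE4 libraries by -0.096 to 0.086 in these classes. The calls between the groups differed by length too. Under 1500 bases 14.9% of these genes were higher with nApoE4 and 30.0% lower, with a median log2 fold change of -0.074. Above 6000 bases 35.4% were higher and 25.2% lower, with a median of 0.066. The part of length in the calls was not tested. Values without control replicate 2 are given below where they matter.

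Of the 14240 genes, 57.2% passed the test of edgeR's quasi-likelihood F statistic at an adjusted p under 0.05, with 28.6% higher and 28.6% lower than in the controls. A fold change above 2 was added to this in 10.2% of genes on the higher side and 7.46% on the lower side. In 63.6% of genes the libraries of the 2 groups did not overlap. Every list of genes below is to be read against these shares. The changes were uneven in size as well as in number. The 4067 higher genes together rose from 200292 to 348294 CPM, and the 100 genes of largest gain held 39.5% of it, while the 4078 lower genes together fell from 290456 to 203493 CPM, and the 100 genes of largest loss held 27.0% of that. Among the 88 tested genes at 1000 CPM or more, 30.7% were called and none was lower by more than 2-fold, against 63.3% called among the 6546 genes at 10 to 100 CPM.

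**Figure D1:**
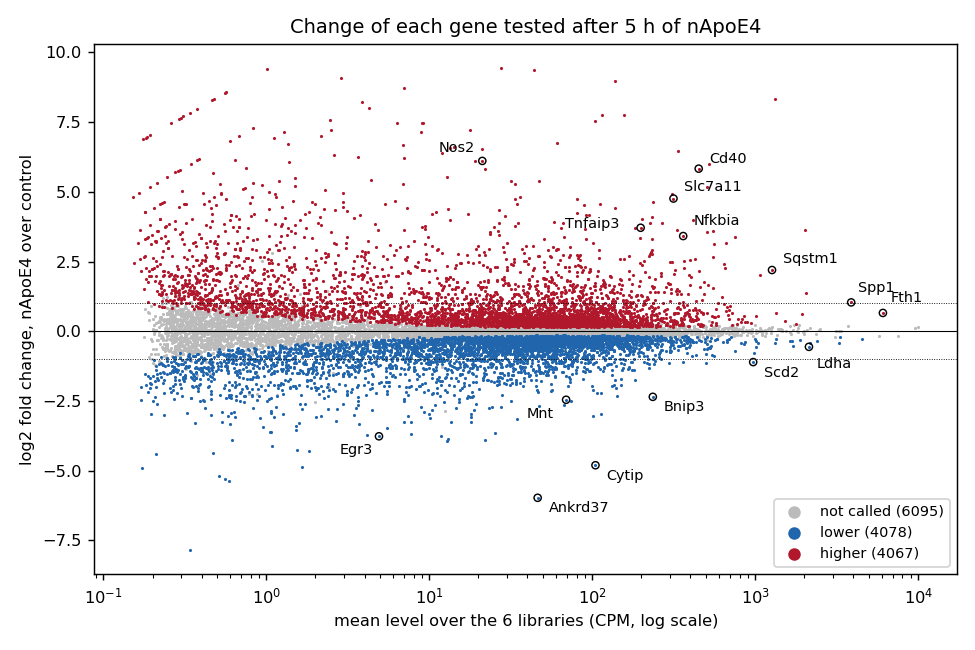
Log2 fold change of nApoE4 over control for each of the 14240 genes tested, against its mean level in CPM on a log axis, with higher genes in red, lower genes in blue and genes that did not pass the test in grey, and dotted lines at a 2-fold change. The widest changes lie among genes under 1000 CPM, where Cd40 sits at 5.83 and Ankrd37 at -5.97.

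Outside the genes that the study listed in its tables, the steepest rises under the naming rule were those of Clec4e, Saa3 and Cd40. The rule asked for at least 1 CPM in both groups, 10 CPM in one and groups that do not overlap. It left out predicted genes, uncharacterised loci and RIKEN genes. Clec4e, a C-type lectin that senses mycobacterial glycolipids and dead cells, measured 6.87, 9.08 and 6.46 CPM in the controls and 649, 629.6 and 701 CPM with nApoE4, a log2 fold change of 6.46 (SE 0.13, edgeR adjusted p = 6.93e-10). Saa3, an acute-phase serum amyloid, measured 17.3, 17.7 and 12.3 CPM in the controls and 1004, 933 and 1115 CPM with nApoE4, a log2 fold change of 6.01 (SE 0.16, edgeR adjusted p = 2.03e-09). Cd40, the costimulatory receptor through which T cells instruct antigen-presenting cells, measured 15.5, 15.6 and 15.5 CPM in the controls and 866, 882 and 902 CPM with nApoE4, a log2 fold change of 5.83 (SE 0.07, edgeR adjusted p = 5.21e-11). The 3 control libraries of Cd40 lay within 0.1 CPM of each other. No control of the 3 genes came near a treated library, although separate groups were a condition of naming them. They were followed by Ntng2, Oasl2, Mmp13, Oasl1, Parp14, Cdc42ep2 and Gpr84, with log2 fold changes from 4.76 to 5.40. Gpr84, a receptor for medium-chain fatty acids, went from 5.73 ± 0.559 to 155 ± 7.75 CPM (SD, n = 3 each), and Oasl1, an interferon-inducible gene of the oligoadenylate synthetase family that shares sequence with Oasl2, went from 27.1 ± 1.58 to 984 ± 33.5 CPM.

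Outside the same tables, the largest gains in CPM were those of Tnfaip2, Fth1, Spp1, Plek and Sqstm1. Tnfaip2, a TNF-induced protein of membrane protrusions, measured 293, 309.9 and 304 CPM in the controls and 3753, 3819 and 3548 CPM with nApoE4. Fth1, the ferritin heavy chain that stores iron, measured 4232, 5382 and 4515 CPM in the controls and 7445, 7412 and 7416 CPM with nApoE4, a log2 fold change of 0.66 (SE 0.10, edgeR adjusted p = 2.96e-04). Spp1, osteopontin, measured 2339, 2948 and 2340.3 CPM in the controls and 5439, 4876 and 5309.5 CPM with nApoE4, a log2 fold change of 1.03 (SE 0.11, edgeR adjusted p = 2.27e-05). All 3 genes were higher in each treated library than in any control. Plek, the protein kinase C substrate pleckstrin, went from 1138 ± 50.8 to 2937 ± 80.2 CPM, and Sqstm1, the autophagy receptor p62, went from 454 ± 53.7 to 2079 ± 74.3 CPM.

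The subunits and inhibitors of NF-kB mostly rose. Of 17 tested members, 15 rose, 2 fell and 0 did not pass the test, with a median log2 fold change of 2.00 beside 0.00 over all genes tested, and 12 rose by more than 2-fold. Their summed level was 770.4, 775 and 779.5 CPM in the controls and 3562, 3658 and 3557 CPM with nApoE4. The promoter windows of Tnfaip3 and Nfkbia are shown because they are the 2 called members of largest change with the NF-kB motif before their start, among the 13 members with a window. Nfkbiz, which changed more, was not among those 13. Nfkbie, which also changed more, had no match before a start or no window. The motif searched was GGANTTNCC on either strand, capitals mark each match, and the 250 bases before the transcript start are given 5′ to 3′ from RefSeq on GRCm38.p6.
Tnfaip3, chr10:19015411-19015660, minus strand: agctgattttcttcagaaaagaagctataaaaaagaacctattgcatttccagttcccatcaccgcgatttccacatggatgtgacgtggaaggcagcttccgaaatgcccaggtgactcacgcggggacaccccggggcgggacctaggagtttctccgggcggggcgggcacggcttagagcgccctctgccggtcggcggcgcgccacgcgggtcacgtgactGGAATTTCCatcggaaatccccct
Nfkbia, chr12:55492648-55492897, minus strand: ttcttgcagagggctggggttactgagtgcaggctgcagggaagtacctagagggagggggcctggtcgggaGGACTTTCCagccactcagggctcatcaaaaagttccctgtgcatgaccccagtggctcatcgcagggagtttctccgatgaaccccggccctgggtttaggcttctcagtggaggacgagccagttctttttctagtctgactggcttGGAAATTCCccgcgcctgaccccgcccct

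Counted to its first base, the match lay 24 bases before the start of Tnfaip3, and Nfkbia held 2, at 29 and 178 bases. Over the windows, which run from 250 bases before to 50 after a start, 11 of the list's 18 (61.1%), belonging to 13 genes, held the motif, against 3.98% of the 14185 windows of tested genes and 3.95% of all 32851 windows. The share was 5.64% among genes that rose by more than 2-fold and 3.98% among those that fell by more than 2-fold, both far under that of the regulators. A match is a run of letters, and binding was not measured here.

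Among the inhibitors, Nfkbia, which encodes the protein that holds NF-kB in the cytoplasm, measured 60.6, 67.0 and 58.2 CPM in the controls and 658, 644 and 679 CPM with nApoE4, a log2 fold change of 3.41 (SE 0.08, edgeR adjusted p = 1.14e-09). Nfkbie, a related inhibitor, measured 4.18, 4.72 and 4.42 CPM in the controls and 64.9, 67.4 and 63.5 CPM with nApoE4, a log2 fold change of 3.88 (SE 0.07, edgeR adjusted p = 4.08e-10). Nfkbiz, a nuclear member of the family that works with NF-kB on secondary response genes, measured 23.8, 21.3 and 25.2 CPM in the controls and 366.5, 391 and 384 CPM with nApoE4, a log2 fold change of 4.02 (SE 0.08, edgeR adjusted p = 5.90e-10). In all 3 genes the treated libraries lay far above the controls. Tnfaip3, the ubiquitin-editing enzyme A20 that shuts off signaling to NF-kB, rose by 3.71 on the log2 scale and Tnip1, its binding partner, by 2.39. Of the transcription factors themselves, Relb rose most, with 17.0, 17.6 and 15.9 CPM in the controls and 166, 169 and 164 CPM with nApoE4, a log2 fold change of 3.30 (SE 0.06, edgeR adjusted p = 4.57e-10). Nfkb2, its usual partner, rose by 2.60 on the log2 scale, Nfkb1 by 2.26, Rel by 1.86 and Rela by 0.91. Rel had its lowest control value, 16.8 CPM, in control replicate 2. The 2 members that fell were Tnip2, at -0.48 ± 0.06 (log2 fold change ± SE), and Nfkbid, at -0.18 ± 0.06, and 1 fell without control replicate 1 or nApoE4 replicate 3.

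**Figure D2:**
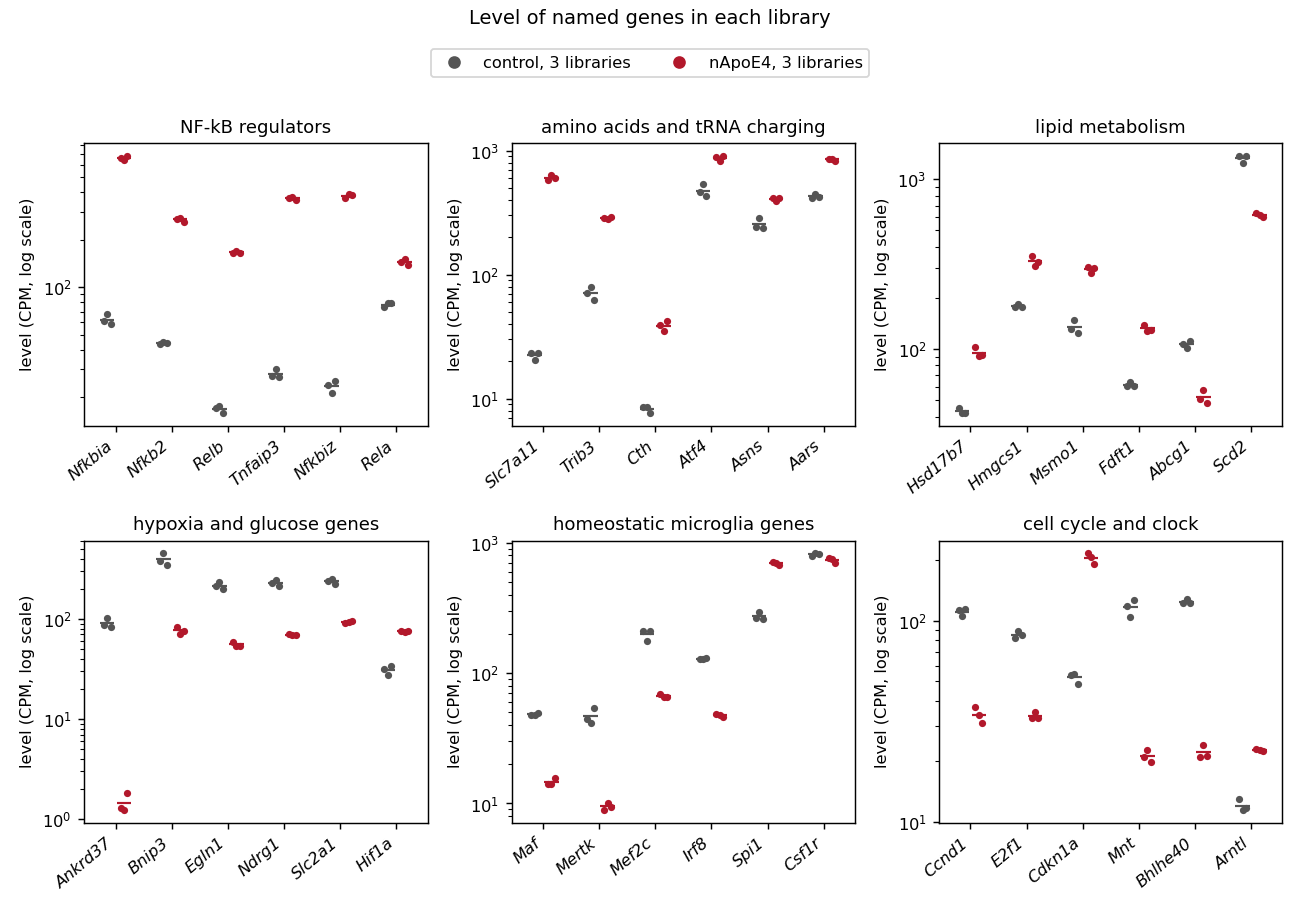
Level in CPM on a log axis of 36 named genes in each of the 6 libraries, grey for the 3 controls and red for the 3 nApoE4 libraries, with a bar at each group mean. The points of the 2 groups are separate for every gene shown, although Csf1r did not pass the test.

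Genes of amino acid supply rose. Of 23 tested members of the ATF4 and amino acid response list, 19 rose, 2 fell and 2 did not pass the test, with a median of 0.87, and 11 rose by more than 2-fold. Slc7a11, the cystine importer whose product feeds glutathione synthesis, led with 23.4, 20.5 and 23.3 CPM in the controls and 581, 641 and 599 CPM with nApoE4, a log2 fold change of 4.76 (SE 0.09, edgeR adjusted p = 4.08e-10). It is also a target of NRF2 and is counted in that list too. Trib3, a pseudokinase that restrains ATF4, measured 70.5, 79.98 and 62.7 CPM in the controls and 284, 279 and 291 CPM with nApoE4, a log2 fold change of 2.00 (SE 0.09, edgeR adjusted p = 6.28e-08). Cth, which makes cysteine from cystathionine, measured 8.51, 8.51 and 7.66 CPM in the controls and 39.0, 34.8 and 42.2 CPM with nApoE4, a log2 fold change of 2.23 (SE 0.09, edgeR adjusted p = 3.40e-08). The 3 genes rose in every treated library. Atf4 itself went from 476 ± 54.6 to 873 ± 36.8 CPM and Asns, asparagine synthetase, went from 256 ± 26.3 to 406 ± 13.4 CPM. Ddit3 (CHOP), Ppp1r15a (GADD34) and Chac1, stress genes downstream of ATF4, rose by 1.81, 1.86 and 1.84 on the log2 scale. The serine synthesis genes Phgdh, at 0.21 ± 0.09, and Psat1, at -0.06 ± 0.06, did not pass the test, and the fallen members were Ddit4, an inhibitor of mTORC1, at -1.13 ± 0.07, and Slc7a3, which stayed under 1 CPM. Only 1 member fell without control replicate 1 and without nApoE4 replicate 1 or 3.

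The enzymes that charge tRNAs rose together by smaller steps. Of 20 cytosolic aminoacyl-tRNA synthetases, 14 rose, 0 fell and 6 did not pass the test, with a median of 0.45, and none passed 2-fold. Their summed level was 4968, 5329.9 and 4987 CPM in the controls and 7435, 7164 and 7255 CPM with nApoE4. Aars, for alanine, measured 418, 444 and 426 CPM in the controls and 859, 855 and 832 CPM with nApoE4, a log2 fold change of 0.98 (SE 0.06, edgeR adjusted p = 7.46e-07). Tars, for threonine, measured 235, 264 and 244 CPM in the controls and 413, 376 and 394 CPM with nApoE4, a log2 fold change of 0.67 (SE 0.07, edgeR adjusted p = 2.48e-05). The groups did not overlap for either gene. The windows of these 2 genes are shown because both hold the letters of the ATF4 element, searched as TGATGNAA on either strand and marked in capitals, in the 250 bases before the start that RefSeq gives on GRCm38.p6.
Aars, chr8:111033592-111033841, plus strand: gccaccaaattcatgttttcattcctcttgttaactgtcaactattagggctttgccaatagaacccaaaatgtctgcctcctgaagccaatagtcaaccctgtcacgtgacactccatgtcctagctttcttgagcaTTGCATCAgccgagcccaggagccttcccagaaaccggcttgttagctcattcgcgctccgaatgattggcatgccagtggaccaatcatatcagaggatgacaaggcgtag
Tars, chr15:11399659-11399908, minus strand: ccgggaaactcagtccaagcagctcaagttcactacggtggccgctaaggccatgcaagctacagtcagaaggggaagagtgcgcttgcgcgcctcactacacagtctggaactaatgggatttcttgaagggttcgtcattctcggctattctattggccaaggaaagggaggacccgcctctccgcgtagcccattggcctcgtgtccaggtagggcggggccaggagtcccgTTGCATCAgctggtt

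The match began 112 bases before the start of Aars and 15 bases before that of Tars. In this list 5 of 13 windows (38.5%) held the element, and in the ATF4 list 6 of 21 (28.6%), against 2.61% of windows of tested genes. The share was 5.92% among genes that rose by more than 2-fold and 2.04% among those that fell by more than 2-fold.

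The stress genes of the endoplasmic reticulum did not share this pattern. Of 26 tested members of the unfolded protein response list, 6 rose, 7 fell and 13 did not pass the test, with a median of -0.03. Herpud1, which helps remove misfolded proteins and is also raised by ATF4, measured 67.5, 75.4 and 65.4 CPM in the controls and 229.7, 215 and 226 CPM with nApoE4, and Hspa5, the chaperone BiP, went from 424 ± 20.4 to 730.4 ± 26.6 CPM. Dnajb9, at -0.61 ± 0.09, Pdia4, at -0.52 ± 0.06, and Xbp1, at -0.20 ± 0.07, fell, and so did the sensor kinase Eif2ak3, at -1.05 ± 0.06. The chaperones Calr, at -0.16 ± 0.08, Hsp90b1, at -0.13 ± 0.08, and Pdia6, at -0.02 ± 0.08, did not pass the test. Without nApoE4 replicate 2, 3 members rose in place of 6. Of 15 cytosolic heat shock proteins, 2 rose, 4 fell and 9 did not pass the test.

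Antioxidant genes split. Of 20 tested NRF2 genes, 12 rose, 5 fell and 3 did not pass the test, with a median of 0.78. Sod2, the mitochondrial superoxide dismutase, measured 149, 170.4 and 147 CPM in the controls and 643, 611 and 648 CPM with nApoE4, Srxn1, which repairs oxidized peroxiredoxins, measured 85.4, 95.1 and 84.2 CPM in the controls and 314, 305 and 300.4 CPM with nApoE4, and Txnrd1, which keeps thioredoxin reduced, went from 222 ± 7.88 to 747 ± 31.7 CPM. Nfe2l2, the gene of NRF2 itself, rose by 1.06 on the log2 scale. Hmox1, heme oxygenase and a classical NRF2 target, fell, with 610.3, 714 and 589 CPM in the controls and 429, 411 and 428 CPM with nApoE4, a log2 fold change of -0.59 (SE 0.08, edgeR adjusted p = 1.83e-04), and Osgin1, at -0.67 ± 0.07, Gpx1, at -0.33 ± 0.11, and Gpx4, at -0.32 ± 0.10, fell too, although 3 members in place of 5 fell without nApoE4 replicate 2. Gclm, the partner of Gclc in glutathione synthesis, rose by 0.96 while Gclc stood at -0.42 ± 0.06.

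Among 17 genes of iron handling, 7 rose, 6 fell and 4 did not pass the test. The importer Slc11a2 (DMT1) measured 70.3, 73.4 and 71.9 CPM in the controls and 262, 273 and 255 CPM with nApoE4, a log2 fold change of 1.87 (SE 0.06, edgeR adjusted p = 6.47e-09), while the transferrin receptor Tfrc measured 704, 692 and 707 CPM in the controls and 387, 365.9 and 408 CPM with nApoE4, a log2 fold change of -0.86 (SE 0.07, edgeR adjusted p = 2.99e-06). Both groups of libraries were separate for the 2 genes, which took opposite directions. The siderophore-binding Lcn2 rose from 0.279 ± 0.0962 to 27.99 ± 3.25 CPM, and the exporter Slc40a1 (ferroportin) fell by 0.66 on the log2 scale. The ferritin light chain Ftl1, at -0.17 ± 0.12 with an interval of -0.43 to 0.09, did not pass the test although the heavy chain rose. The metallothioneins Mt1 and Mt2, which bind zinc and share much of their sequence, fell, Mt1 from 689 ± 75.2 to 313 ± 20.9 CPM and Mt2 from 413 ± 52.4 to 262 ± 31.2 CPM, while the zinc and iron importer Slc39a14 rose from 32.9 ± 2.41 to 84.1 ± 2.86 CPM.

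Sterol synthesis rose along almost the whole pathway. Of 22 tested members, 19 rose, 1 fell and 2 did not pass the test, with a median of 0.70. Their summed level was 2191, 2208 and 2155 CPM in the controls and 3677, 3436 and 3444 CPM with nApoE4. Hmgcs1, at the entry of the pathway, measured 178, 184 and 177 CPM in the controls and 351, 308 and 327 CPM with nApoE4, a log2 fold change of 0.87 (SE 0.07, edgeR adjusted p = 3.00e-06). Fdft1, squalene synthase, measured 60.6, 63.6 and 60.3 CPM in the controls and 138, 128 and 130.1 CPM with nApoE4, a log2 fold change of 1.10 (SE 0.06, edgeR adjusted p = 2.22e-07). Msmo1, which removes methyl groups from lanosterol derivatives, measured 132, 149 and 124 CPM in the controls and 306, 279.6 and 299 CPM with nApoE4, a log2 fold change of 1.13 (SE 0.08, edgeR adjusted p = 1.53e-06). These 3 steps rose in every treated library, none by much more than 2-fold. Hsd17b7 and Idi1 also passed 2-fold, with log2 fold changes of 1.14 and 1.03. Srebf2, the transcription factor that drives this pathway, went from 361 ± 21.96 to 477 ± 19.0 CPM. The single member that fell was Ebp, at -0.27 ± 0.09, and it lost its call when any 1 of the 3 nApoE4 libraries was left out.

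Fatty acid synthesis showed no such direction. Of its 15 tested genes, 4 rose, 5 fell and 6 did not pass the test, and the central enzymes Fasn, at -0.05 ± 0.13, Acly, at 0.03 ± 0.06, and Acaca, at 0.08 ± 0.11, did not pass the test. Scd2, a fatty acid desaturase, measured 1365, 1248 and 1362 CPM in the controls and 633, 618 and 597 CPM with nApoE4, a log2 fold change of -1.11 (SE 0.07, edgeR adjusted p = 7.00e-07), and Srebf1, the factor of this pathway, went from 208 ± 6.56 to 136 ± 7.47 CPM. Acsl1, which activates long-chain fatty acids, measured 139, 139.8 and 143 CPM in the controls and 433, 442 and 409 CPM with nApoE4. Of 14 genes of cholesterol efflux and storage, 2 rose, 9 fell and 3 did not pass the test. The exporter Abcg1 measured 108, 102 and 111 CPM in the controls and 51.0, 57.1 and 47.95 CPM with nApoE4, the cholesterol ester hydrolase Nceh1 went from 176 ± 9.09 to 78.4 ± 4.16 CPM, and the mouse's own Apoe went from 1862 ± 162 to 1478 ± 67.9 CPM, a log2 fold change of -0.33 (SE 0.08, edgeR adjusted p = 0.00649). Abca1, the other main exporter, stood at 0.18 ± 0.11 and did not pass the test.

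**Figure D3:**
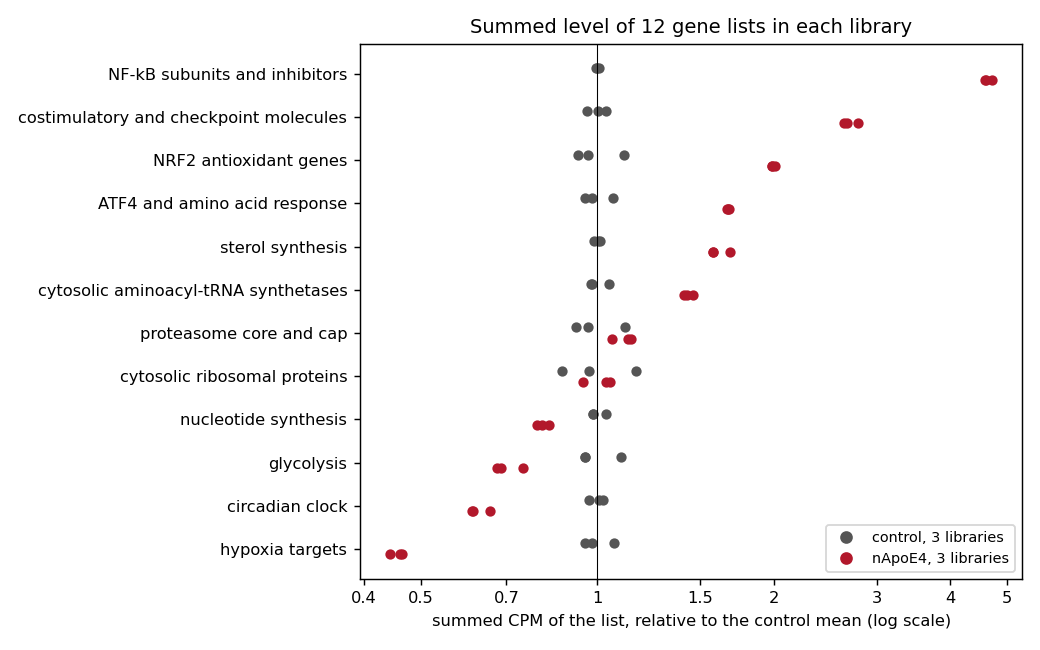
Summed CPM of 12 gene lists in each library, divided by the mean of the 3 controls, on a log axis, with controls in grey and nApoE4 libraries in red. NF-kB regulators lie furthest to the right and hypoxia targets furthest to the left, while for ribosomal and proteasome genes the 2 groups overlap.

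Most genes that HIF1 raises in low oxygen were lower with nApoE4. Of 16 tested members of the hypoxia list, 1 rose, 13 fell and 2 did not pass the test, with a median of -1.23, and 9 fell by more than 2-fold. Their summed level was 2105, 2294 and 2049.9 CPM in the controls and 999.8, 953 and 991 CPM with nApoE4. Ankrd37, an ankyrin-repeat gene on chromosome 8 from 45996908 to 46000414 (GRCm38.p6), fell furthest of all genes that the naming rule allowed, with 87.8, 103 and 82.2 CPM in the controls and 1.29, 1.23 and 1.83 CPM with nApoE4, a log2 fold change of -5.97 (SE 0.14, edgeR adjusted p = 1.47e-09). Bnip3, a mitophagy receptor, measured 382, 452 and 345 CPM in the controls and 83.9, 70.9 and 76.3 CPM with nApoE4, a log2 fold change of -2.35 (SE 0.11, edgeR adjusted p = 8.78e-08). Egln1, the oxygen-sensing hydroxylase PHD2, measured 212, 232 and 201 CPM in the controls and 59.4, 53.7 and 54.3 CPM with nApoE4, a log2 fold change of -1.94 (SE 0.07, edgeR adjusted p = 2.41e-08). In each of these 3 genes the lowest control was more than 2-fold above the highest treated library. Adm, which encodes the vessel-relaxing peptide adrenomedullin, held 46, 41 and 56 counts in the controls and 0, 2 and 1 with nApoE4, the latter all under the floor. Ndrg1, Mxi1, Kdm3a and Pdk1 fell by 1.72, 1.39, 1.28 and 1.18 on the log2 scale. Hif1a, the gene of the factor itself, took the other direction, with 31.9, 27.5 and 34.0 CPM in the controls and 75.4, 74.0 and 75.5 CPM with nApoE4, a log2 fold change of 1.27 (SE 0.08, edgeR adjusted p = 6.41e-07). Vegfa, the vascular growth factor, moved little, at -0.23 ± 0.06, and Ero1l, at 0.02 ± 0.06, and Car9, at -0.21 ± 0.22, did not pass the test.

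The windows of Ankrd37 and Egln3, the 2 called members of largest change with a match among the 14 members with a window, are shown with the core of the hypoxia response element, searched as ACGTG on either strand, in capitals. They are the 250 bases before the start, from RefSeq on GRCm38.p6. The window of Ankrd37 lies inside the span of the gene given above, so the start used is not its outermost one.
Ankrd37, chr8:45999851-46000100, minus strand: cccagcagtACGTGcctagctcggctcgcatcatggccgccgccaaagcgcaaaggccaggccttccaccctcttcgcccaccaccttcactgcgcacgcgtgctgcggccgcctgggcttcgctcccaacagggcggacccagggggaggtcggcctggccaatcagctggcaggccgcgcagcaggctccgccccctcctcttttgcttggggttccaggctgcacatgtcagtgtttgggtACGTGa
Egln3, chr12:54203875-54204124, minus strand: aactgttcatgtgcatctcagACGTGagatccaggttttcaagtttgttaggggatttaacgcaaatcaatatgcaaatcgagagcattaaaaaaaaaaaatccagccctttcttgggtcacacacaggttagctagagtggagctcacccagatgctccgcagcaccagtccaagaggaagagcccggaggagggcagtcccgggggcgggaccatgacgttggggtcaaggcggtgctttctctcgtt

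Ankrd37 held 2 matches, beginning 6 and 241 bases before the start used. Egln3, a sister hydroxylase of Egln1 that went from 4.85 ± 0.595 to 0.516 ± 0.173 CPM, held 1 match at 229 bases. The core was found in 12 of 20 windows (60.0%) of the hypoxia list and 18 of 34 (52.9%) of the glycolysis list, and also in 7 of 12 (58.3%) of the MYC network and 10 of 19 (52.6%) of the clock list, against 24.8% of windows of tested genes. The share was 19.8% among all genes that fell by more than 2-fold and 18.9% among those that rose by more than 2-fold, so the core was common in these lists and not among the fallen genes as a whole. It was also held by 6 of 13 windows (46.2%) of the aminoacyl-tRNA synthetases and 8 of 21 (38.1%) of the ATF4 list, which rose. So short a run of letters occurs often, and binding was not measured.

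Glycolysis fell at nearly every step. Of 21 tested genes, 1 rose, 19 fell and 1 did not pass the test, with a median of -0.57. Their summed level was 16003, 18406 and 15981 CPM in the controls and 12537, 11343 and 11530.5 CPM with nApoE4. Slc2a1, the glucose importer GLUT1, measured 239, 251 and 222 CPM in the controls and 92.1, 93.8 and 94.4 CPM with nApoE4, a log2 fold change of -1.35 (SE 0.06, edgeR adjusted p = 1.01e-07). Hk2, the inducible hexokinase, measured 166, 165 and 172 CPM in the controls and 69.1, 72.3 and 67.3 CPM with nApoE4, a log2 fold change of -1.27 (SE 0.06, edgeR adjusted p = 7.46e-08). Pfkl, a phosphofructokinase, measured 164, 174 and 173 CPM in the controls and 66.8, 63.2 and 59.8 CPM with nApoE4, a log2 fold change of -1.43 (SE 0.06, edgeR adjusted p = 6.64e-08). These 3 genes and Pdk1 were the 4 members that fell by more than 2-fold. Later enzymes moved less, among them Pkm, from 3713 ± 203 to 2802 ± 173 CPM, Ldha, from 2541 ± 284 to 1726 ± 85.9 CPM, and Tpi1, from 1249 ± 174 to 724 ± 48.97 CPM, and Pkm and Ldha were among the 5 largest losses in CPM of genes that passed the test. Gapdh stood at -0.27 ± 0.07 and 228 CPM in the controls, and since the genome holds many copies of it, its level depends on how reads aligned to several places were treated. Pfkfb3, which makes the activator of phosphofructokinase, was the single member that rose, at 0.44 ± 0.07, and Hk3, at -0.09 ± 0.06, did not pass the test. Slc2a6, a lysosomal hexose transporter named by the rule for the solute carrier family, rose from 25.9 ± 2.05 to 441 ± 7.06 CPM. In the pentose phosphate pathway 6 genes were tested, of which 1 rose, 0 fell and 5 did not pass the test, and without control replicate 2 the number that rose was 2, while 1 fell without control replicate 3.

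Genes of nucleotide synthesis were mostly lower. Of 22 tested, 1 rose, 16 fell and 5 did not pass the test, with a median of -0.34. Tk1, thymidine kinase, measured 95.5, 101 and 96.0 CPM in the controls and 49.7, 49.1 and 46.6 CPM with nApoE4, and Rrm2, the regulated subunit of ribonucleotide reductase, went from 119 ± 3.94 to 64.1 ± 2.01 CPM. The single riser was Ctps, at 0.15 ± 0.06, and it kept its call without control replicate 2 alone among the 6 libraries left out.

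Genes of the cell's entry into S phase were lower. Of 24 tested G1 cyclins, CDK inhibitors and E2F genes, 2 rose, 17 fell and 5 did not pass the test, with a median of -0.67. Ccnd1, cyclin D1, measured 113, 106 and 115 CPM in the controls and 37.4, 34.2 and 31.1 CPM with nApoE4, a log2 fold change of -1.70 (SE 0.08, edgeR adjusted p = 6.98e-08). Ccne1, cyclin E1, measured 43.0, 49.7 and 44.0 CPM in the controls and 14.6, 15.2 and 15.98 CPM with nApoE4, a log2 fold change of -1.58 (SE 0.08, edgeR adjusted p = 1.07e-07). E2f1, the activator of S phase genes, measured 82.2, 89.4 and 85.1 CPM in the controls and 32.8, 35.2 and 32.8 CPM with nApoE4, a log2 fold change of -1.35 (SE 0.06, edgeR adjusted p = 7.41e-08). The 3 activators fell to a level under every control. The inhibitors were divided: Cdkn1b (p27) measured 38.6, 40.6 and 40.9 CPM in the controls and 12.8, 12.9 and 13.2 CPM with nApoE4, a log2 fold change of -1.63 (SE 0.06, edgeR adjusted p = 2.03e-08), while Cdkn1a (p21) measured 53.8, 54.5 and 48.8 CPM in the controls and 217, 207 and 192 CPM with nApoE4, a log2 fold change of 1.97 (SE 0.07, edgeR adjusted p = 1.83e-08). Cdk6 rose from 64.2 ± 7.75 to 125 ± 11.1 CPM, and Ccnd2, at 0.07 ± 0.07, and Cdkn2a, at 0.05 ± 0.08, did not pass the test. Cdk4 fell by 0.25 on the log2 scale and lost its call without control replicate 1 and when any 1 nApoE4 library was left out.

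Of 11 tested genes of the MYC network, 3 rose, 6 fell and 2 did not pass the test. Myc rose from a low level, with 0.649, 0.862 and 0.657 CPM in the controls and 8.33, 9.65 and 8.93 CPM with nApoE4, a log2 fold change of 3.63 (SE 0.14, edgeR adjusted p = 3.28e-08), while the repressors that compete for its partner Max fell. Mnt measured 118, 104 and 128 CPM in the controls and 21.1, 22.8 and 19.9 CPM with nApoE4, a log2 fold change of -2.46 (SE 0.09, edgeR adjusted p = 1.74e-08), and Mxi1, Mxd4 and Mxd1 fell by 1.39, 1.74 and 1.24 on the log2 scale. Max itself, at 0.01 ± 0.06, did not pass the test. In homologous recombination and Fanconi repair, 31 genes were tested, of which 5 rose, 19 fell and 7 did not pass the test. Brca1 measured 80.6, 67.3 and 84.5 CPM in the controls and 32.7, 33.8 and 31.2 CPM with nApoE4, a log2 fold change of -1.25 (SE 0.09, edgeR adjusted p = 1.54e-06), and Exo1 went from 53.4 ± 0.510 to 32.0 ± 0.426 CPM, while Rbbp8 (CtIP) rose from 44.8 ± 2.99 to 90.1 ± 4.13 CPM. Of 18 targets of p53, 11 rose, 2 fell and 5 did not pass the test. Gadd45a, a stress gene that several factors induce, went from 4.07 ± 0.295 to 48.7 ± 3.40 CPM, Plk2 went from 117 ± 3.69 to 680.3 ± 19.3 CPM, and Mdm2, the ligase that limits p53, went from 44.3 ± 1.88 to 134 ± 0.165 CPM. Sesn1 and Phlda3, 2 further targets, fell by 1.43 and 1.30 on the log2 scale.

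**Figure D4:**
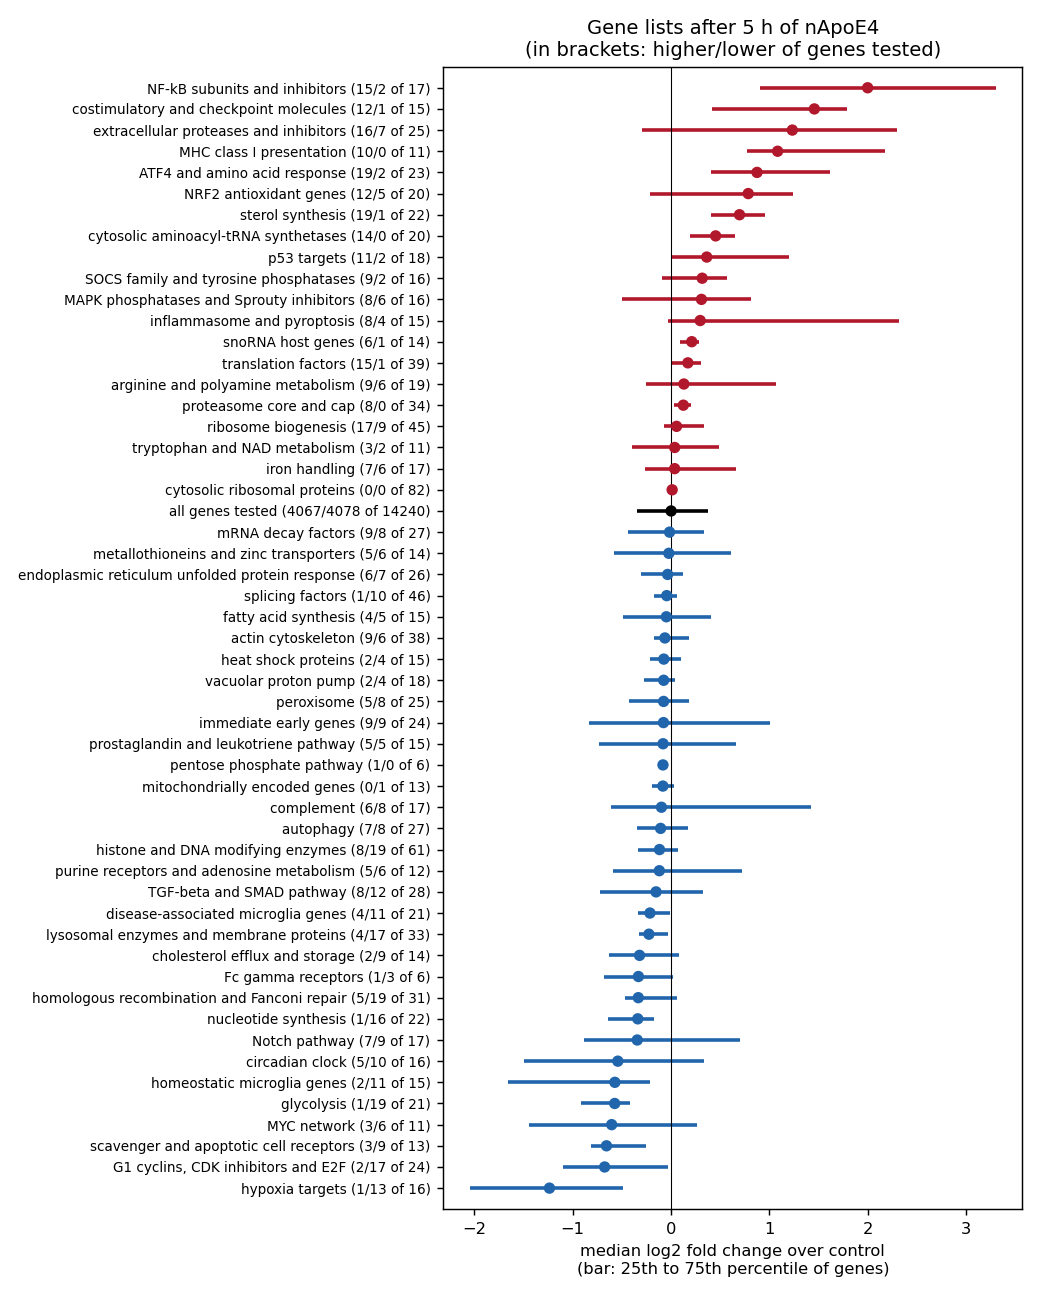
Median log2 fold change of the tested members of each gene list (point) with the 25th to 75th percentile over genes (bar), with all genes tested in black and, after each name, the number higher and lower of the number tested. Medians run from 2.00 for NF-kB subunits and inhibitors to -1.23 for hypoxia targets.

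Genes that mark resting microglia mostly fell. Of 15 tested members, 2 rose, 11 fell and 2 did not pass the test, with a median of -0.57, which was -0.86 without nApoE4 replicate 3 and -0.95 with DESeq2. Maf, a transcription factor of mature macrophages, measured 47.6, 48.1 and 49.9 CPM in the controls and 14.2, 14.2 and 15.6 CPM with nApoE4, a log2 fold change of -1.73 (SE 0.06, edgeR adjusted p = 2.03e-08). Mertk, a receptor for apoptotic cells, measured 44.2, 41.2 and 54.4 CPM in the controls and 8.90, 10.1 and 9.45 CPM with nApoE4, a log2 fold change of -2.30 (SE 0.11, edgeR adjusted p = 1.14e-07). Mef2c, which restrains microglial activation, measured 209.6, 178 and 209.8 CPM in the controls and 69.3, 65.4 and 65.6 CPM with nApoE4, a log2 fold change of -1.58 (SE 0.08, edgeR adjusted p = 1.26e-07). In all 3 genes every treated library lay below every control. Irf8, another factor of this state, fell by 1.44 on the log2 scale. Spi1, which encodes PU.1, the master factor of the lineage, rose, with 265, 295 and 260.0 CPM in the controls and 710.3, 697 and 675 CPM with nApoE4, a log2 fold change of 1.35 (SE 0.07, edgeR adjusted p = 2.19e-07). Csf1r, the receptor that keeps microglia alive, stood at -0.15 ± 0.07 (interval -0.30 to -0.00, edgeR adjusted p = 0.0802) and did not pass the test. The other 9 of the 24 listed members held too few counts to be tested.

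Among the genes known as disease-associated microglia genes more fell than rose. Of 21 tested, 4 rose, 11 fell and 6 did not pass the test. Spp1, Cst7, Lilrb4a and the very low Axl rose, while Ctsd, from 2704 ± 406 to 2099 ± 70.8 CPM, Apoe, Lpl, at -0.21 ± 0.07, and Cd9, at -0.45 ± 0.09, fell. Gpnmb, a transmembrane glycoprotein of lysosomes, stood at -0.16 ± 0.07 and did not pass the test. The number that fell was 6 or 7 without control replicate 1 and without nApoE4 replicate 1 or 2. Trem2 measured 61.9, 2.54 and 1.36 CPM in the controls and 1.22, 5.43 and 2.50 CPM with nApoE4. Its mean was set by control replicate 1 alone, and it did not pass the test.

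Receptors for uptake were mostly lower. Of 13 scavenger and apoptotic cell receptors, 3 rose, 9 fell and 1 did not pass the test. Colec12, a scavenger lectin, measured 299.5, 322 and 319 CPM in the controls and 153, 159 and 165 CPM with nApoE4, Scarb1, a lipoprotein receptor, went from 168 ± 6.67 to 106 ± 4.11 CPM, and Lrp1, a large endocytic receptor that binds apolipoprotein E, measured 675, 442 and 799.5 CPM in the controls and 327, 429 and 332 CPM with nApoE4. Lrp1 has a long transcript, and its log2 fold change was -0.82 with all libraries and -1.03 without control replicate 2. Marco, a scavenger receptor for bacteria, rose instead, with 2.23, 2.77 and 2.39 CPM in the controls and 44.3, 53.2 and 54.6 CPM with nApoE4, a log2 fold change of 4.36 (SE 0.12, edgeR adjusted p = 2.35e-09). Of 6 tested genes of receptors for immunoglobulin G, 1 rose, 3 fell and 2 did not pass the test, and without control replicate 2 the number that rose was 2. The activating Fcgr3 measured 368.98, 465 and 378 CPM in the controls and 186, 178 and 189 CPM with nApoE4 and the inhibitory Fcgr2b measured 47.1, 48.2 and 44.8 CPM in the controls and 122, 123 and 129 CPM with nApoE4. They moved in opposite directions, with log2 fold changes of -1.13 and 1.42. Of 17 complement genes, 6 rose, 8 fell and 3 did not pass the test, with C3, from 7.11 ± 0.292 to 50.7 ± 2.48 CPM, and the C5a receptor C5ar1, from 10.7 ± 0.772 to 49.3 ± 1.45 CPM, on the higher side and C1qb, from 71.2 ± 12.5 to 45.9 ± 2.57 CPM, and the second C5a receptor C5ar2, at -1.99 ± 0.17, on the lower side.

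Of 33 lysosomal genes, 4 rose, 17 fell and 12 did not pass the test, with a median of -0.22. Tfeb, the factor that raises lysosomal genes, measured 46.9, 47.9 and 43.0 CPM in the controls and 13.2, 15.1 and 12.7 CPM with nApoE4, a log2 fold change of -1.75 (SE 0.08, edgeR adjusted p = 8.43e-08). Psap, the saposin precursor, went from 2030.2 ± 159 to 1393 ± 42.1 CPM, and Ctsb, a cathepsin, stood at -0.01 ± 0.09 and did not pass the test. Of 27 autophagy genes, 7 rose, 8 fell and 12 did not pass the test. The receptors Sqstm1 and Optn rose by 2.20 and 2.32 on the log2 scale, while Nbr1, another receptor, fell from 120.1 ± 7.19 to 66.0 ± 1.69 CPM, and the initiating kinase Ulk1 fell from 39.8 ± 4.77 to 22.3 ± 1.41 CPM.

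Most tested genes of class I presentation and costimulation rose. Of 11 tested genes of class I presentation, 10 rose, 0 fell and 1 did not pass the test, with a median of 1.08. Nlrc5, the transactivator of class I genes, measured 63.5, 51.0 and 73.1 CPM in the controls and 127, 143 and 127 CPM with nApoE4, and the immunoproteasome subunit Psmb10 went from 65.7 ± 8.95 to 119.6 ± 2.26 CPM. H2-Q4 went from 4.49 ± 0.482 to 29.6 ± 1.88 CPM, a value that is uncertain because class I genes share sequence. Another 7 members of the list, B2m and Tap1 among them, held too few counts to be tested. In class II presentation only 3 of 11 listed genes were tested, of which 2 rose, 0 fell and 1 did not pass the test. Where at least 10 counts were asked of every library, 1 rose. The class II chain genes H2-Ab1 and H2-Eb1 were listed at 0 in all 6 libraries. Cd74, the class II chaperone, measured 102, 121 and 97.3 CPM in the controls and 432, 427 and 403 CPM with nApoE4. Of 15 costimulatory and checkpoint genes, 12 rose, 1 fell and 2 did not pass the test, with a median of 1.46. Icosl measured 9.95, 8.97 and 10.4 CPM in the controls and 171, 187 and 163 CPM with nApoE4, a log2 fold change of 4.15 (SE 0.09, edgeR adjusted p = 6.18e-10), and Cd274, the checkpoint ligand PD-L1, measured 13.6, 11.01 and 12.2 CPM in the controls and 80.1, 82.1 and 78.0 CPM with nApoE4, a log2 fold change of 2.71 (SE 0.08, edgeR adjusted p = 4.57e-09). Cd80 rose by 1.46, while Cd86, the other ligand of CD28, stood at 0.12 ± 0.07 and did not pass the test.

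Among 15 tested genes of the inflammasome, 8 rose, 4 fell and 3 did not pass the test. Nlrp3 measured 50.03, 47.4 and 51.4 CPM in the controls and 612, 629 and 593 CPM with nApoE4, a log2 fold change of 3.62 (SE 0.07, edgeR adjusted p = 4.23e-10), and Casp4, the sensor of cytosolic lipopolysaccharide that is called caspase-11 in mice, went from 15.8 ± 1.58 to 129 ± 4.02 CPM. The other sensors Nlrc4, Aim2 and Nlrp1b fell by 0.62, 0.30 and 0.83 on the log2 scale. Of 25 extracellular proteases and inhibitors, 16 rose, 7 fell and 2 did not pass the test. Mmp13, collagenase 3, measured 1.66, 1.68 and 1.77 CPM in the controls and 70.7, 59.7 and 66.9 CPM with nApoE4, Adam17, which releases TNF from the membrane, went from 188 ± 8.35 to 470.2 ± 11.97 CPM, and Plau, urokinase, fell from 221 ± 32.7 to 85.0 ± 2.096 CPM, while Plaur, its receptor, rose by 1.23 on the log2 scale.

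Enzymes that share a substrate moved apart in the use of arginine and of arachidonic acid. In arginine use, Nos2, which makes nitric oxide, measured 0.529, 0.704 and 0.569 CPM in the controls and 45.5, 39.4 and 40.02 CPM with nApoE4, a log2 fold change of 6.11 (SE 0.12, edgeR adjusted p = 5.14e-10), while Arg1, which makes ornithine, measured 40.9, 42.1 and 36.5 CPM in the controls and 17.7, 12.1 and 12.96 CPM with nApoE4, a log2 fold change of -1.48 (SE 0.13, edgeR adjusted p = 8.15e-06). For both genes the libraries of the groups were apart. Over the whole arginine and polyamine list, 19 genes were tested, of which 9 rose, 6 fell and 4 did not pass the test. Gch1, which makes the cofactor of Nos2, rose from 8.37 ± 1.04 to 70.1 ± 0.474 CPM, and the arginine importer Slc7a2 rose from 56.5 ± 5.82 to 178 ± 5.33 CPM. In the prostaglandin and leukotriene pathway, 15 genes were tested, of which 5 rose, 5 fell and 5 did not pass the test. Ptgs2 (COX-2) measured 2.72, 1.93 and 2.61 CPM in the controls and 69.0, 63.0 and 63.2 CPM with nApoE4, a log2 fold change of 4.75 (SE 0.11, edgeR adjusted p = 1.23e-09), while Ptgs1 (COX-1) measured 96.8, 94.5 and 97.2 CPM in the controls and 37.0, 34.9 and 33.3 CPM with nApoE4, a log2 fold change of -1.46 (SE 0.06, edgeR adjusted p = 3.83e-08). Ptges, which makes prostaglandin E2, rose from 2.00 ± 0.246 to 12.1 ± 1.96 CPM, and Hpgds, which makes prostaglandin D2, fell from 156 ± 6.89 to 80.3 ± 4.07 CPM. In tryptophan and NAD metabolism, 11 genes were tested, of which 3 rose, 2 fell and 6 did not pass the test. Cd38, which consumes NAD, rose from 1.60 ± 0.307 to 25.2 ± 0.257 CPM and Kmo, of the kynurenine pathway, fell from 6.08 ± 0.529 to 1.19 ± 0.106 CPM.

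Immediate early genes were divided. Of 24 tested, 9 rose, 9 fell and 6 did not pass the test, with a median of -0.08. Egr3 measured 8.48, 9.90 and 9.04 CPM in the controls and 0.501, 0.789 and 0.723 CPM with nApoE4, a log2 fold change of -3.77 (SE 0.16, edgeR adjusted p = 5.31e-08), and Fos measured 25.3, 32.3 and 29.3 CPM in the controls and 6.37, 5.43 and 5.50 CPM with nApoE4, a log2 fold change of -2.33 (SE 0.11, edgeR adjusted p = 1.07e-07). Nr4a1 and Klf10 fell by 1.62 and 1.67 on the log2 scale, while Junb rose from 180.1 ± 12.2 to 360.4 ± 15.7 CPM and Atf3 rose by 1.10. Egr1 held too few counts to be tested. Among 16 MAPK phosphatases and Sprouty inhibitors, 8 rose, 6 fell and 2 did not pass the test. Dusp8, which acts on stress kinases, went from 0.545 ± 0.0892 to 25.1 ± 1.35 CPM and Dusp16, of the same kind, from 17.7 ± 0.496 to 63.7 ± 1.14 CPM, while Dusp6 and Dusp7, which act on ERK, fell from 6.15 ± 0.187 to 1.95 ± 0.120 CPM and from 56.4 ± 0.726 to 15.7 ± 0.244 CPM. Of 16 SOCS genes and tyrosine phosphatases, 9 rose, 2 fell and 5 did not pass the test, with Socs3 from 13.9 ± 1.19 to 107 ± 4.26 CPM and the phosphatase Ptpn6 (SHP-1) from 326 ± 15.4 to 192 ± 3.17 CPM. Of 27 mRNA decay factors, 9 rose, 8 fell and 10 did not pass the test. The RNases Zc3h12c and Zc3h12a rose by 3.34 and 1.99 on the log2 scale, while Zfp36l2, an AU-rich element binding protein, fell from 105 ± 8.58 to 44.4 ± 1.66 CPM and Tob1, a deadenylation adaptor, fell from 25.3 ± 0.483 to 11.3 ± 0.271 CPM.

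The circadian clock genes changed in both directions. Of 16 tested, 5 rose, 10 fell and 1 did not pass the test, with a median of -0.54. Bhlhe40, a repressor of the clock that is also a target of HIF1, measured 122, 128 and 124 CPM in the controls and 20.9, 24.3 and 21.4 CPM with nApoE4, a log2 fold change of -2.49 (SE 0.07, edgeR adjusted p = 3.56e-09). Nr1d1, the repressor REV-ERBα, measured 12.5, 10.49 and 12.2 CPM in the controls and 2.43, 2.61 and 2.63 CPM with nApoE4, a log2 fold change of -2.19 (SE 0.11, edgeR adjusted p = 1.34e-07). Arntl (BMAL1), the activator that Nr1d1 represses, measured 12.98, 11.5 and 11.7 CPM in the controls and 23.1, 22.9 and 22.6 CPM with nApoE4, a log2 fold change of 0.92 (SE 0.07, edgeR adjusted p = 3.69e-06). The repressor Nr1d1 and the activator Arntl thus moved in opposite directions. The output genes Dbp and Tef, which BMAL1 and its partner activate, fell by 1.73 and 1.41 on the log2 scale, and Nfil3, their antagonist, rose by 0.61. With 1 time point per group, a change of level and a shift of phase cannot be told apart.

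Signaling lists without a common direction were those of TGF-beta, with 28 genes tested of which 8 rose, 12 fell and 8 did not pass the test, and Notch, with 17 tested of which 7 rose, 9 fell and 1 did not pass the test. Smad3 went from 19.6 ± 2.03 to 7.58 ± 0.0719 CPM and Id2, a target of the BMP branch, from 153 ± 14.9 to 63.3 ± 4.21 CPM, while Skil, an inhibitor of SMADs, rose from 30.2 ± 1.41 to 71.7 ± 3.68 CPM. Lfng, which modifies Notch receptors, fell from 33.1 ± 1.27 to 5.41 ± 0.536 CPM and Jag2, a ligand, from 141 ± 12.7 to 64.6 ± 2.44 CPM, while Notch1 rose from 3.42 ± 0.489 to 11.4 ± 1.78 CPM. Among 12 purine genes, 5 rose, 6 fell and 1 did not pass the test, with P2ry1 at -1.08 ± 0.06, P2rx7 at -0.91 ± 0.08 and the phosphorylase Pnp, which breaks down inosine and guanosine, at 1.41 ± 0.08. Of 38 actin genes, 9 rose, 6 fell and 23 did not pass the test. Marcksl1 and Marcks, which tie actin to the membrane, went from 14.1 ± 1.71 to 106 ± 3.99 CPM and from 35.6 ± 2.25 to 158 ± 5.66 CPM, while Actb stood at 0.01 ± 0.08 with an interval of -0.18 to 0.20. Of 25 peroxisome genes, 5 rose, 8 fell and 12 did not pass the test, and of 14 metallothioneins and zinc transporters, 5 rose, 6 fell and 3 did not pass the test.

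No cytosolic ribosomal protein gene passed the test, while some genes of other machinery that makes proteins did. Of 82 cytosolic ribosomal proteins 0 passed the test with edgeR, 0 with DESeq2 and 0 at an unadjusted p under 0.05, against 57.2% of all genes, and their median log2 fold change was 0.01. Their summed level was 71201, 85664 and 64007 CPM in the controls and 76234, 69736 and 77451 CPM with nApoE4, so the 2 groups overlapped and control replicate 2 was the highest of all. Without that library 19 members rose, none fell, and the median was 0.13. Counts in other lists also moved without control replicate 2. Over all genes, 4404 were then higher and 4423 lower, in place of 4067 and 4078. The transcript lengths of these lists were not compared. In the proteasome core and cap, of 34 tested genes, 8 rose, 0 fell and 26 did not pass the test, while 23 rose without control replicate 2, 4 without control replicate 1 or nApoE4 replicate 1, and 5 without control replicate 3. Among 39 translation factors, 15 rose, 1 fell and 23 did not pass the test, while 24 rose without control replicate 2 and 9 without control replicate 1. Among 61 histone and DNA modifying enzymes, 8 rose, 19 fell and 34 did not pass the test, while 30 fell without control replicate 2. Their median was -0.12 with all libraries and -0.19 without control replicate 2. It was -0.03 without control replicate 3 and -0.07 without nApoE4 replicate 3. The largest changes in these lists were seen in each library, as for Eif5, a translation factor that went from 291 ± 5.79 to 494 ± 11.3 CPM, Eif4ebp2, a repressor of cap-dependent translation that went from 181 ± 11.7 to 80.3 ± 5.93 CPM, the proteasome subunit Psmd11, from 122 ± 5.11 to 221 ± 3.93 CPM, the histone demethylase Kdm4a, from 122 ± 5.11 to 510.3 ± 13.7 CPM, and the deacetylase Hdac5, from 132 ± 9.74 to 48.1 ± 2.08 CPM.

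Of 46 splicing factors, 1 rose, 10 fell and 35 did not pass the test, and of 45 ribosome biogenesis genes, 17 rose, 9 fell and 19 did not pass the test. The number of splicing factors that fell was 5 without control replicate 1 and without nApoE4 replicate 2 or 3, and the number that rose was 7 without control replicate 2 and 2 without nApoE4 replicate 2, while ribosome biogenesis genes that fell numbered 5 without nApoE4 replicate 2 or 3. Of 18 subunits of the vacuolar proton pump, 2 rose, 4 fell and 12 did not pass the test, and 4 rose without control replicate 2. Of 14 host genes of small nucleolar RNAs, 6 rose, 1 fell and 7 did not pass the test, while 2 or 3 rose without control replicate 1 or 3 and without nApoE4 replicate 1 or 3. Of 13 mitochondrially encoded genes, 0 rose, 1 fell and 12 did not pass the test. The one that fell was CYTB, the cytochrome b gene, with 5011, 4876 and 4966 CPM in the controls and 4418, 3559 and 4266 CPM with nApoE4, and it lost its call without control replicate 1 and without nApoE4 replicate 2 or 3, while 2 fell without control replicate 2. Among the genes of highest CPM that did not pass the test were COX1, with an interval of the log2 fold change of -0.08 to 0.35, and Eef1a1, the elongation factor, with -0.11 to 0.31. These intervals exclude a 2-fold change of either gene.

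The steepest falls under the naming rule, other than those of the hypoxia list, were those of Cytip, Cxcr4, Zfp395, Lbh and Apold1. The rule took called genes outside the study's tables, with at least 1 CPM in both groups, 10 CPM in one and no overlap. Cytip, a partner of cytohesin in cell adhesion, measured 203, 211 and 191 CPM in the controls and 7.88, 6.17 and 7.62 CPM with nApoE4, a log2 fold change of -4.80 (SE 0.10, edgeR adjusted p = 6.18e-10). Cxcr4, the receptor of the chemokine CXCL12, measured 23.1, 23.99 and 25.0 CPM in the controls and 1.38, 1.43 and 1.96 CPM with nApoE4, a log2 fold change of -3.92 (SE 0.12, edgeR adjusted p = 6.75e-09). Lbh, a cofactor of transcription, measured 23.4, 25.3 and 24.7 CPM in the controls and 1.55, 1.70 and 1.83 CPM with nApoE4, a log2 fold change of -3.85 (SE 0.09, edgeR adjusted p = 1.67e-09). Each of these genes went from over 20 CPM in every control to under 8 CPM in every treated library. St6gal1, which adds sialic acid to glycoproteins, went from 47.04 ± 1.94 to 3.74 ± 0.698 CPM, Thbd, thrombomodulin, went from 14.3 ± 0.393 to 1.10 ± 0.140 CPM, Lpar5, a receptor of lysophosphatidic acid, went from 32.8 ± 2.41 to 3.41 ± 0.168 CPM, and Zfyve28, at -3.26 ± 0.10, closed the 10. In CPM, besides Pkm and Ldha, the largest losses among genes that passed the test were those of CYTB, Scd2 and Psap.

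**Figure D5:**
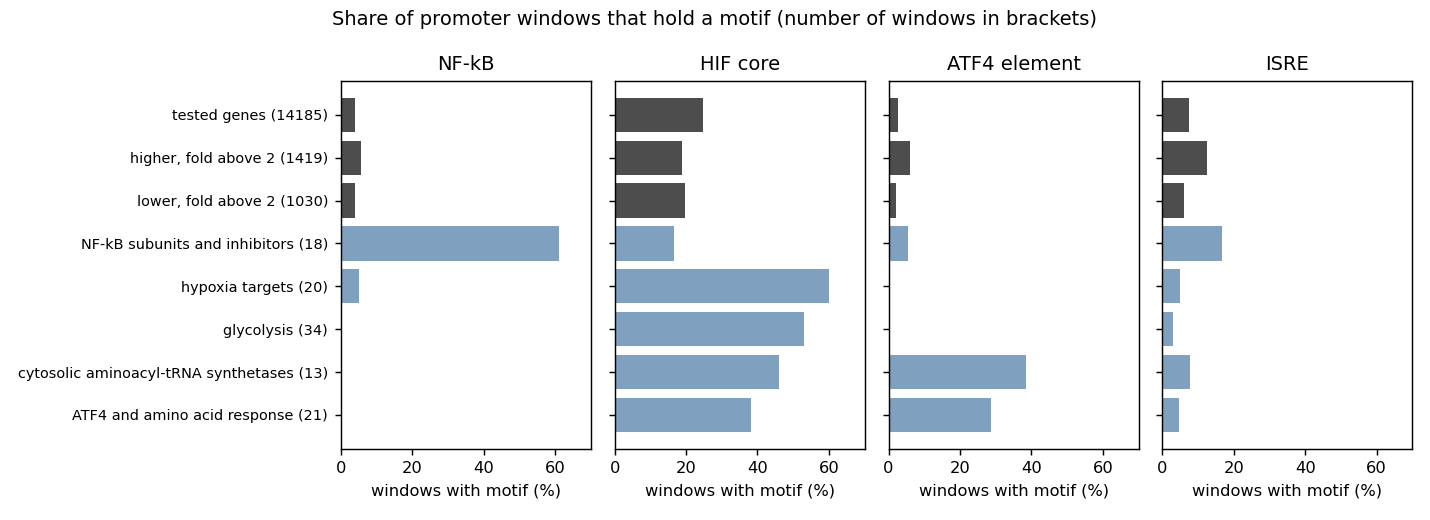
Percent of promoter windows, 250 bases before to 50 after a transcript start, that hold a match of each of 4 motifs on either strand, for tested genes, for genes higher or lower by more than 2-fold and for 5 gene lists, with the number of windows in brackets. The NF-kB motif is at 61.1% in the NF-kB list and 3.98% in tested genes, and the interferon element (ISRE) is at 12.5% in genes higher by more than 2-fold.

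Motifs were also counted over all promoters of the response. The interferon-stimulated response element, searched as GAAANNGAA on either strand, was held by 12.5% of the 1419 windows of genes that rose by more than 2-fold, by 6.02% of the 1030 windows of genes that fell by more than 2-fold, and by 7.32% of windows of tested genes. The sterol element, searched as TCACNCCAC, was held by 1 of 19 windows of the sterol list and by 1.11% of windows of tested genes. The E2F site, searched as TTTNNCGC, was held by 7 of 23 windows (30.4%) of the G1 and E2F list, by 4 of 13 (30.8%) of the snoRNA host genes and by 7.99% of windows of tested genes. The E-box CACGTG, which contains the hypoxia core, was held by 5 of 19 windows (26.3%) of the clock list, 4 of 12 (33.3%) of the MYC network, 4 of 13 (30.8%) of the tRNA synthetases, 10 of 35 (28.6%) of the translation factors, 8 of 31 (25.8%) of the lysosomal list and 9.76% of windows of tested genes. Windows of the same gene can overlap, and these shares are descriptions without a test.

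Genes that changed by more than 2-fold often lay beside each other. Of the 1383 genes with a position that rose by more than 2-fold, 27.3% were followed on the chromosome by a tested gene that did so too, while 10.0% of all positioned genes rose in this way. For falls of more than 2-fold the shares were 16.7% and 7.32%. Runs of paralogs made part of this, and reads of near-identical copies or of overlapping genes on the other strand can be counted on either, since the strand setting of the counting is not given in the sources used here. The longest run of risen genes held 10 consecutive tested genes on chromosome 1 from 173566280 to 174042936, from Pydc4 to Olfr433, and includes the interferon-inducible Ifi200 family. A run of 8 on chromosome 9 from 88685630 to 89207838 holds the Bcl2a1 genes, which protect from apoptosis, and a run of 7 on chromosome 7 from 104244448 to 104507853 holds Trim34a, Trim5, Trim12a, Trim12c, Trim30a and Trim30d, all on GRCm38.p6. Among fallen genes the longest runs held 5, such as the run on chromosome 19 from 41597824 to 41848132 with Slit1, Arhgap19, Frat1 and Frat2.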

How the data were processed

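RNA of BV2 cells was sequenced as single-end reads. Per the submitters' processing notes, reads were trimmed with Trim Galore 0.5.0, checked with FastQC 0.11.8, aligned to GRCm38.p6 with HISAT2 2.1.0 and counted with HTSeq 0.11.0. The authors deposited raw counts per gene for each library, with 36529 genes listed by symbol and no normalization. The annotation release and the strand setting are not given in the sources used here. Rows of reads not counted on a gene were left out of library sizes and tests, which left 76.0 to 77.4% of all tallied reads. Depth was 39732710 to 44162511 counts per library, which bounds counting error only.

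Groups were taken from the sample labels. The tests were run on the counts as deposited, with edgeR 4.0.16 in R 4.3.3 (filterByExpr, TMM, quasi-likelihood F test, Benjamini-Hochberg adjustment over all 14240 genes tested, threshold 0.05), on the 3 nApoE4 and 3 control libraries. The study used DESeq2, which is an alternative here. Each SE was taken from the F statistic, as the absolute log2 fold change over its root, and is approximate, and intervals are 95% intervals from the same fit. SDs are over 3 libraries. On simulated data with 200 changed genes among 14240, this test recovered 97% (88% at a fold of 1.5, 100% at 2 and above), and 8.92% of genes called had not been changed. The changed genes were well expressed, with equal numbers up and down, and far fewer than the 57.2% called here. The simulation therefore does not show how the test does on low genes or with that many changes.

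The members, 53 hand-written gene lists and 9 symbol families were chosen with earlier results of these data known, so lists are described by counts and medians without a test. Genes were named by rule: the 10 highest and 10 lowest log2 fold changes among called genes with at least 1 CPM in both groups, at least 10 CPM in one and no overlap, outside 76 genes of the paper's tables, the 5 largest gains and 5 largest losses in CPM, up to 4 called members of each list with at least 5 CPM and its most abundant member, its defining regulators or enzymes, and the 5 most abundant genes that did not pass. Some further list members were named after their values were seen, and 1 symbol family and some genes that the rule names are not reported here. Of the tested genes, 13865 were matched to RefSeq (493 by a synonym), which gave positions and promoter windows. A fold against 3 counts or fewer would be a lower bound, and 103 genes higher by more than 2-fold had no control above that floor. Alternatives were DESeq2 1.42.0, its size factors in edgeR, looser and stricter count filters, a replicate block, all 11 libraries in 1 fit, a test against a fold of 2 and leaving out each library. Labels share replicate numbers between groups, but residuals of same-numbered libraries correlated at -0.07, -0.25 and -0.10, so the numbers were not used as pairs.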

Additional observations from a re-analysis of the deposited data

Results flagged for a closer look

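In tallies that no comparison above uses, 2 classes of reads took a larger share of the nApoE4 libraries, while reads counted on genes made up 76.9 to 77.4% there and 76.0 to 77.1% in the controls. Reads aligned outside genes made up 2.18% ± 0.106 of all tallied reads with nApoE4 and 1.97% ± 0.0603 in the controls (SD, n = 3 each), and the groups did not overlap. Reads that fell on more than 1 gene made up 3.51% ± 0.0441 and 3.37% ± 0.0145. Each difference had a 2-sided exact permutation p = 0.1, the smallest that 3 libraries against 3 can give. These 2 classes were kept because every nApoE4 library lay above every control, which by itself fixes that p. Reads not aligned and reads aligned to several places were looked at too, and their shares overlapped between the groups.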

How the results depend on the processing

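Over all alternatives that test for any change, the number of genes higher with nApoE4 lay between 3534 and 4593 and the number lower between 3502 and 4635. Replicate numbers are shared by the groups in the labels, and the fit with the replicate block called 3534 genes higher and 3502 lower, with 1439 and 1045 past 2-fold. DESeq2 called 3995 and 3981 genes. Leaving out 1 library gave 3584 to 4404 higher genes, 3558 to 4423 lower, 1436 to 1556 higher by more than 2-fold and 1055 to 1157 lower. A test against a fold change of 2 called 988 genes higher and 587 lower in place of 1452 and 1063, since it asks for a fold above 2 beyond error, and at least 10 counts in every library left 12917 genes, 1007 and 810 past 2-fold. No gene named by rule changed direction between called values. CYTB, Cdk4, Gas5, Snhg1 and Snhg20 lost their call in 1 to 5 alternatives, and 11 genes gained one. Counts of list members stayed within 1.5 times in 1402 values and moved further in 86. List medians moved by more than 1 SD between treated libraries in 207 of their values, over 50 lists and families, and took the opposite sign in 37, over 16 lists and families whose median was at most 0.12 in size. Depth limits genes under the floor of 3 counts, and 13631 genes were listed at 0 in all 6 libraries.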

Other observations

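Some genes were high in a single library. Trem2 measured 61.9 CPM in control replicate 1 and 1.22 to 5.43 CPM in the other 5 libraries, and Atp6v1c1, a proton pump subunit, measured 22.4 CPM in control replicate 1 and 1.16 to 3.00 CPM in the others. Slc25a1, the mitochondrial citrate carrier, measured 5.29 CPM in nApoE4 replicate 3 and 0.148 to 0.363 CPM in the others. None of these 3 passed the test, with edgeR adjusted p of 0.0752, 0.122 and 0.0625. The immunoproteasome genes Psmb8 and Psmb9, which held too few counts in the other libraries to be tested, had 282 and 85 counts in control replicate 1 and at most 9 and 4 elsewhere.

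The symbol families are to be read against the 57.2% of all tested genes that passed the test. The share was lower among Zfp genes, RIKEN genes, predicted genes and uncharacterised loci. It was higher among Trim genes, solute carriers, Rab GTPases and ubiquitin-specific proteases. Of 286 tested Zfp genes 82 rose and 65 fell, and of 44 Trim genes 19 rose and 14 fell. By more than 2-fold, 10 Zfp genes rose and 8 fell, while 12 Trim genes rose and 4 fell. Of 212 solute carrier genes 65 rose and 70 fell, and of 46 Rab GTPases 16 rose and 13 fell. Of 45 ubiquitin-specific proteases 19 rose and 11 fell. Usp18, which removes the ubiquitin-like ISG15, went from 5.21 ± 0.565 to 29.4 ± 0.639 CPM and Usp2 from 21.1 ± 0.968 to 3.65 ± 0.222 CPM (SD, n = 3 each). Of 702 RIKEN genes 171 rose and 179 fell, and of 274 uncharacterised loci 69 rose and 60 fell. Among 1216 tested genes known only as predicted genes, 357 rose and 252 fell, 231 and 158 of them by more than 2-fold. With at least 10 counts in every library the numbers that rose were 222 predicted genes and 44 uncharacterised loci.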
